A study of Mus musculus with 24 samples.

Results

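Hindlimb buds of C57BL/6J mouse embryos were profiled for acetylation of histone H3 at lysine 27 (H3K27ac) at embryonic day 10.5 (E10.5) and a day later, at E11.5. The comparison rests on 3 peak lists: 2 libraries of E10.5 hindlimb bud (replicates 1 and 2) and 1 library of E11.5 hindlimb bud, taken by their titles from the 24 samples of the series (10 with peak lists). All of these embryos share the C57BL/6J strain, no genetic change or treatment is named, and the buds were fixed with formaldehyde, sonicated and immunoprecipitated with an antibody of the same catalogue number. The antibody lot differed between the stages, so stage and lot cannot be told apart. Forelimb buds of the same stages (2 H3K27ac libraries at E10.5, 1 at E11.5) and 2 E10.5 hindlimb libraries for trimethylation of the same residue (H3K27me3), which were single-end while the H3K27ac libraries were paired-end, served for comparison. For the E11.5 library the growth text speaks of gestation to day 10.5, against E11.5 in its title and stage label, and the title was followed. Whether the replicates came from separate litters is not stated, so their spread may be technical, and with 1 library at E11.5 no stage difference was tested and no p-value is given.

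H3K27ac marks promoters and enhancers in use, and broad acetylated domains often lie over genes that define a cell's identity. H3K27me3 is deposited by Polycomb complexes and marks silenced developmental genes, and the same lysine cannot carry both groups at once. The early bud is mesenchyme that grows out under Fgf signals from the ectodermal ridge and Shh from its posterior margin. As it lengthens, a Meis-positive proximal part, a distal part patterned by the 5′ Hoxa and Hoxd genes and the first Sox9-positive cartilage condensations become distinct. In whole buds, fewer cells carrying a mark and less of the mark per cell cannot be told apart.

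Among the loci that follow, Irx3, Isl1 and Meis1 stood in windows less covered by H3K27ac at E11.5 than in either E10.5 library, and Hoxd13 and Hand2 in parts with more covered bases at E11.5, though not a larger share of all covered bases in each. Their promoters, from 250 bases before a transcript start to 50 after it, are shown because the windows are named for these genes. They are from RefSeq on GRCm38.p6, 5′ to 3′ on the gene's own strand, with CG dinucleotides in capitals, and were not placed on the mm9 peak coordinates.
Irx3: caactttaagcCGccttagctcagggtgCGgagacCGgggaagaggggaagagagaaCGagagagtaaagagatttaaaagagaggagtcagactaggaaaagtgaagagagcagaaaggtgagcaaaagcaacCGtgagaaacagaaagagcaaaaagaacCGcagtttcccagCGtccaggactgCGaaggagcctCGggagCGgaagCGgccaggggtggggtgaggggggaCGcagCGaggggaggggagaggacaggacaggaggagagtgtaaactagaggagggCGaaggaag
Isl1: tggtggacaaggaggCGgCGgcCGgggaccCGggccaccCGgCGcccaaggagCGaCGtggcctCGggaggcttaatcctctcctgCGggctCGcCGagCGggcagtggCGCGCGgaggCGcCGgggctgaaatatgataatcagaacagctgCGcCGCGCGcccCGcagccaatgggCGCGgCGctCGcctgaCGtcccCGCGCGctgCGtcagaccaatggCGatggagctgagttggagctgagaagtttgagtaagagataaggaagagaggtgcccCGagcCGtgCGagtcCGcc
Meis1: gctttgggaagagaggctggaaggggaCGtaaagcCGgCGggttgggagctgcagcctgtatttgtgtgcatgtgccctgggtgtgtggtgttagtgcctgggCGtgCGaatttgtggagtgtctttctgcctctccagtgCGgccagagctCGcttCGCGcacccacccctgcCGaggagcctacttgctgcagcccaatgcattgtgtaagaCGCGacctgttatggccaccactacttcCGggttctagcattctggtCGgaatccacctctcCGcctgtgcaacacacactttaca
Hoxd13: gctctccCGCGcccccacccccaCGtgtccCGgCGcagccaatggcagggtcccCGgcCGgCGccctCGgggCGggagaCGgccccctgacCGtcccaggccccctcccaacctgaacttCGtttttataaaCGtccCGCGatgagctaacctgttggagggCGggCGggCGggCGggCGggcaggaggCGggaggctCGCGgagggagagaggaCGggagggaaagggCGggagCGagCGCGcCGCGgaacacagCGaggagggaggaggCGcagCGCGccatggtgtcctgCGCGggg
Hand2: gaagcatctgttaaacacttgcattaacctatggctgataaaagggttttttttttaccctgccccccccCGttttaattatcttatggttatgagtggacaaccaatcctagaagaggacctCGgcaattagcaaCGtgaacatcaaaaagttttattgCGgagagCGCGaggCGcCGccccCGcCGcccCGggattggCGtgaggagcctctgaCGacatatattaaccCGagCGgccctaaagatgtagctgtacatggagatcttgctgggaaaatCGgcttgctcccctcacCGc
The Isl1 and Hoxd13 promoters hold 37 CG dinucleotides each, a number reached by 5.58% of 32851 RefSeq promoters of the same length, against a median of 7. Hand2 holds 17, Meis1 15 and Irx3 14, numbers reached by 31.4%, 34.6% and 36.3% of promoters. The letters TGACAG, the core bound by Meis proteins, were searched on both strands and are in none of the 5, and in 19.2% of all promoters. CAATAAA, the core of the motif bound by the group 13 Hox proteins, was found 1 time, in Hand2, and is in 4.60% of all promoters. None of the 5 promoters holds both motifs, whose letters can share a CA across strands.

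Peaks of each E10.5 list lying within 1000 bp of each other were joined, because neighbouring E11.5 peaks are at least 1001 bp apart. Replicate 1 then held 12886 regions covering 10.5 Mb and replicate 2 held 13236 regions covering 13.1 Mb, with median lengths of 625 and 772.5 bp. The E11.5 list held 32612 peaks covering 47.2 Mb, with a median of 944 bp. Depth is not recorded in peak lists, so the wider coverage at E11.5 may hold a difference in sequencing, enrichment or threshold, which was not tested, and a region called absent is one where the authors' caller reported no interval. Regions of 10 kb or more numbered 3 and 4 in the E10.5 libraries and 218 at E11.5.

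Of the hindlimb H3K27ac regions present in both E10.5 libraries, nearly all were still there a day later, and most E11.5 peaks had no E10.5 counterpart. Merging the E10.5 lists gave 7985 regions touched by both libraries, of which 7403 (92.7%, 95% Wilson interval 92.1 to 93.3) overlapped an E11.5 peak by at least 1 bp and are called kept. The other 582 (7.29%, 6.74 to 7.88) are called absent. Another 10000 regions, with a median of 337 bp, came from a single E10.5 library, and 55.3% of these overlapped an E11.5 peak. From the E11.5 side, 7246 peaks (22.2%) touched a region of both E10.5 libraries, 4523 (13.9%) touched a region of 1 library only, and 20843 (63.9%, 63.4 to 64.4) touched neither and are called new. New peaks had a median of 582 bp and covered 20.1 Mb, 42.6% of E11.5 bases. Kept regions had a median length of 1315 bp and absent regions 789 bp. These intervals cover counting error over regions, which are not independent replicates.

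In the main setting, the share absent at E11.5 was smaller than the disagreement between libraries of 1 stage. Of replicate 1 regions, 62.9% were found in replicate 2 and 75.4% at E11.5. Of replicate 2 regions, 60.5% were found in replicate 1 and 80.9% at E11.5. Taking any other combination of 2 of the 3 lists, 17.0% of 9171 regions held by replicate 1 and E11.5 were missing from replicate 2, and 25.2% of 10175 held by replicate 2 and E11.5 were missing from replicate 1. Each E10.5 library thus missed a larger share of what the other lists held than the E11.5 library did. The E11.5 list covered 47.2 Mb against 10.5 and 13.1 Mb, and a list covering more bases misses fewer regions. These shares therefore cannot set loss between stages against the spread between replicates. With a single E10.5 library as the start, 3169 regions of replicate 1 and 2532 of replicate 2 were absent, so the count of 582 depends on asking for both. It came to 133 where E10.5 peaks needed a score of at least 100, to 194 with the top 50% of each E10.5 list, and to 1534 where E11.5 peaks needed 1000 bp. Under that last setting 80.8% of regions were kept and 6172 peaks were new. The share absent then lay between the 17.0% and 25.2% above, which used all E11.5 peaks.

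**Figure D1:**
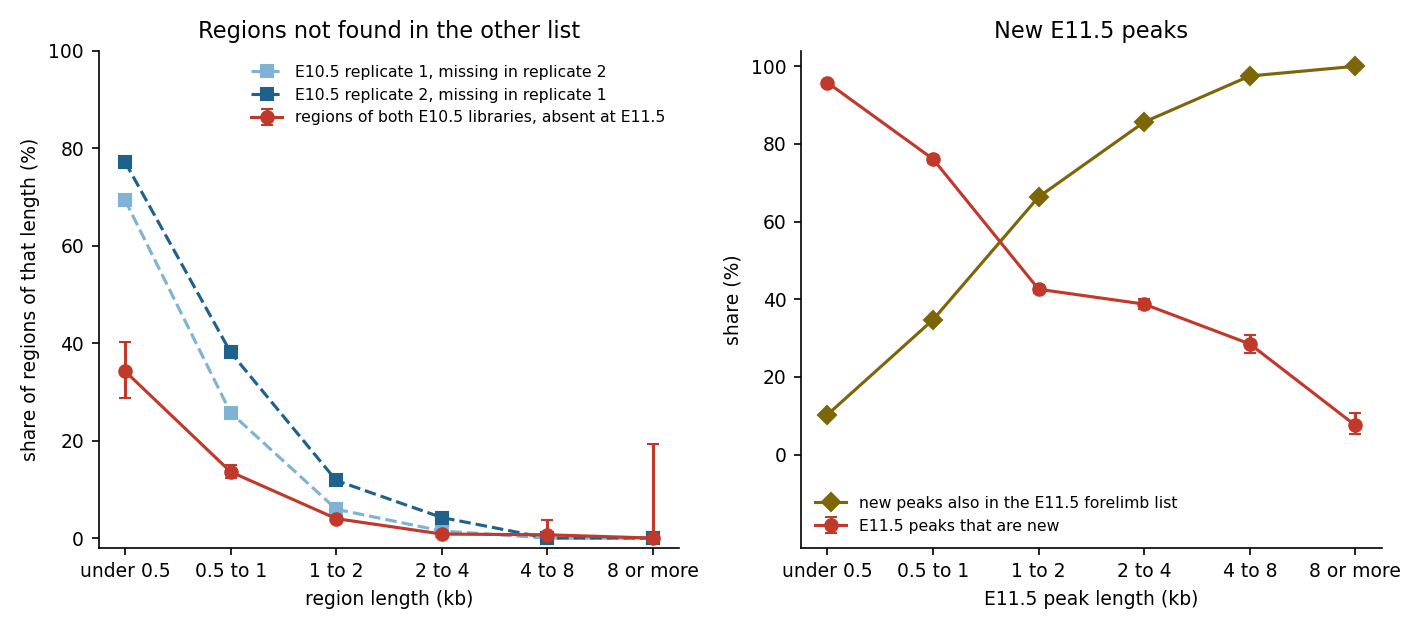
Left, share of regions of each length (x axis, kb) that were not found in the other list (y axis, %): regions of both E10.5 libraries absent at E11.5 with 95% Wilson intervals, and regions of each E10.5 library missing from the other. Right, share of E11.5 peaks that are new, with intervals, and share of new peaks also in the E11.5 forelimb list. The share absent was 34.2% under 0.5 kb and 0.826% at 2 to 4 kb. Of the 28 new peaks of 8 kb or more, 100% were in forelimb, and of all E11.5 hindlimb peaks of that length 0.809% were missing there.

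Absence was concentrated in short regions. Of regions under 500 bp, 88 of 257 (34.2%) were absent, against 330 of 2429 (13.6%) at 500 to 1000 bp, 152 of 3804 (4.00%) at 1000 to 2000 bp and 11 of 1331 (0.826%) at 2000 to 4000 bp. At 4000 to 8000 bp 1 of 148 was absent, the region in the Irx5 window described with the proximal genes, and 0 of 16 longer regions were, which leaves room for a share of up to 19.4% (Wilson). The plot of shares by length sets these beside the E10.5 libraries, whose own regions, not filtered for presence in both, were missing from the other library more often in each class below 4000 bp: at 500 to 1000 bp, 25.7% of replicate 1 and 38.1% of replicate 2. New peaks followed length in the same direction, from 95.8% of 9149 peaks under 500 bp to 76.1%, 42.6%, 38.8%, 28.5% and 7.55% in the classes above. The rank of a region's best peak within each E10.5 list, averaged over the libraries (100 is the strongest), had a median of 72.6 in kept and 50.3 in absent regions. In the band of ranks up to 20, 22.1% of 154 regions were absent, and in the band above 80, 1.45% of 2826.

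Kept regions were mostly longer at E11.5. Of the E11.5 peaks on regions of both libraries, 7106 matched exactly 1 E10.5 region and 140 spanned 2 or more. Among the 7106, 5571 (78.4%) were longer than the E10.5 region, with a median ratio of 1.26 (quartiles 1.03 and 1.75). New peaks were not mainly edges of old regions: the median distance to the nearest region of any E10.5 hindlimb library was 23.5 kb (quartiles 8.39 and 59.4), with 28.6% within 10 kb and 14.4% beyond 100 kb. Absent regions lay a median of 19.4 kb from the nearest E11.5 peak, and 11.0% of them lay beyond 100 kb.

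**Figure D2:**
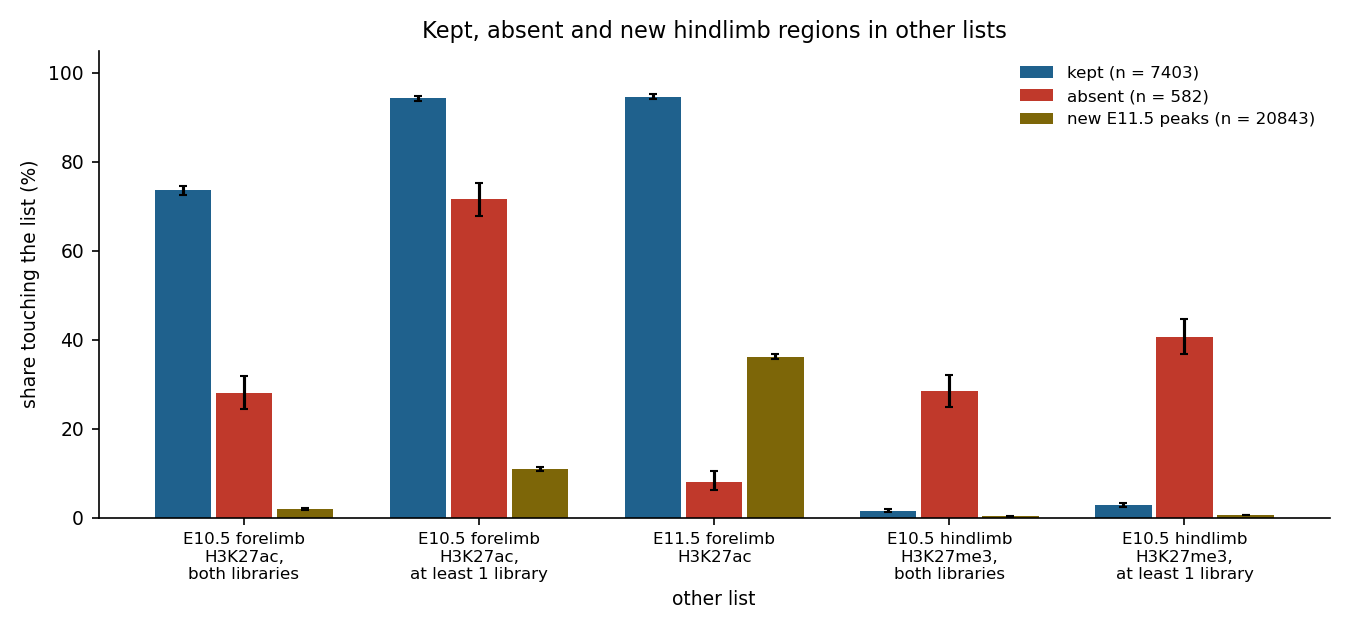
Share (y axis, %) of kept, absent and new hindlimb regions that touch each other list (x axis), with 95% Wilson intervals. Absent regions stand at 8.08% in the E11.5 forelimb list and at 28.4% for H3K27me3 in both E10.5 hindlimb libraries, against 94.7% and 1.55% of kept regions.

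The forelimb lists of the same stages divided the classes in a like way. Of kept regions, 73.6% were in both E10.5 forelimb libraries and 94.7% in the E11.5 forelimb list. Of absent regions, 28.0% were in both E10.5 forelimb libraries, 71.6% in at least 1, and 47 (8.08%, 6.13 to 10.6) in the E11.5 forelimb list. Among the 163 absent regions that both E10.5 forelimb libraries held, 20 (12.3%, 8.09 to 18.2) were in the E11.5 forelimb list, against 5291 of 5452 (97.0%) kept regions held by both. A region absent from E11.5 hindlimb was therefore usually absent from E11.5 forelimb too. The E11.5 libraries of both limbs share their antibody lot and their list format, and the part of these in the shared absence was not tested. Of new peaks, 36.2% were in the E11.5 forelimb list and 1.98% in both E10.5 forelimb libraries. That forelimb share grew with length, from 10.3% under 500 bp to 34.7%, 66.3%, 85.6%, 97.5% and 100% in the classes above. Among all E11.5 hindlimb peaks of these classes, 89.2%, 56.5%, 17.8%, 7.33%, 1.35% and 0.809% were missing from the E11.5 forelimb list. The rise with length was therefore not particular to new peaks. Except in the longest class, their forelimb share was below that of all peaks. Of the 2336 new peaks of 2000 bp or more, 2052 (87.8%, 86.5 to 89.1) were in the E11.5 forelimb list, and with E11.5 peaks of at least 1000 bp alone the share of new peaks there was 74.5%.

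Absent regions carried the Polycomb mark far more often than kept regions. At E10.5, 165 of 582 absent regions (28.4%, 24.8 to 32.1) touched H3K27me3 peaks of both hindlimb libraries, and 237 (40.7%) of at least 1. Of kept regions 115 (1.55%, 1.30 to 1.86) touched both, and of new E11.5 peaks 58 (0.278%). The gap held within each length class: 21 of 88 absent and 0 of 169 kept regions under 500 bp, 91 of 330 and 23 of 2099 at 500 to 1000 bp, 46 of 152 and 53 of 3652 at 1000 to 2000 bp, and 7 of 12 and 39 of 1483 above that. H3K27me3 peaks touching these absent regions had a median length of 1217 bp in replicate 1 and covered a median of 90.3% of the region, against 827 bp and 46.9% at the kept ones, and a median of 678 bp over all 12901 peaks of that list. Kept regions as a class were longer than absent ones (medians of 1315 and 789 bp), so a peak of given length covers less of them. Longer H3K27me3 peaks also touch any region more readily. The part of length in these medians was not tested. Only 3 of the 165 lay in the windows used below and 3 were in the E11.5 forelimb list. Starting from a single E10.5 library, the share of absent regions touching both H3K27me3 libraries was 15.5% (replicate 2) and 12.3% (replicate 1), and it was 13.0% with E11.5 peaks of at least 1000 bp. Whole buds mix cells, so both marks at 1 place may come from different cells or from different alleles, which was not tested. H3K27me3 at E11.5 was not analysed here.

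Loci were compared as 69 windows placed on mm9 around genes of limb development and controls, and as 20 kb bins across the genome. Of 27055 bins covered in any list, the E11.5 library covered more than both E10.5 libraries in 83.1% and less than both in 3.12%. It covered at least 4 kb more than both in 6.86% (1856 bins) and at least 4 kb less in 0.0037% (1 bin). With each library taken as a share of its own covered total, the split was 53.6% above and 23.2% below. Scaled to equal totals, 186 bins stood at least 4 kb above and 131 at least 4 kb below. In unscaled covered bases, coverage above both E10.5 libraries was therefore the usual state and coverage below both rare, which does not hold for shares of the totals. Replicate 1 was below the other 2 lists in 28.3% of bins and replicate 2 in 15.9%. Of the 69 windows, 49 were above both E10.5 libraries, 6 below both and 10 at 0 in all 3, and as shares of the totals 19 were above and 28 below. Each bin was 20 kb long and covered in at least 1 list. Windows differ in length, were placed at chosen genes and can be at 0 in all 3 lists. Bin shares are therefore only a rough guide for windows. The median difference, E11.5 minus the E10.5 mean, was 2.57 kb over windows and 0.685 kb over bins. The windows held 107 regions of both libraries, 17 of them absent (15.9%), and 236 new peaks of 363 (65.0%), against 7.29% and 63.9% over the genome.

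**Figure D3:**
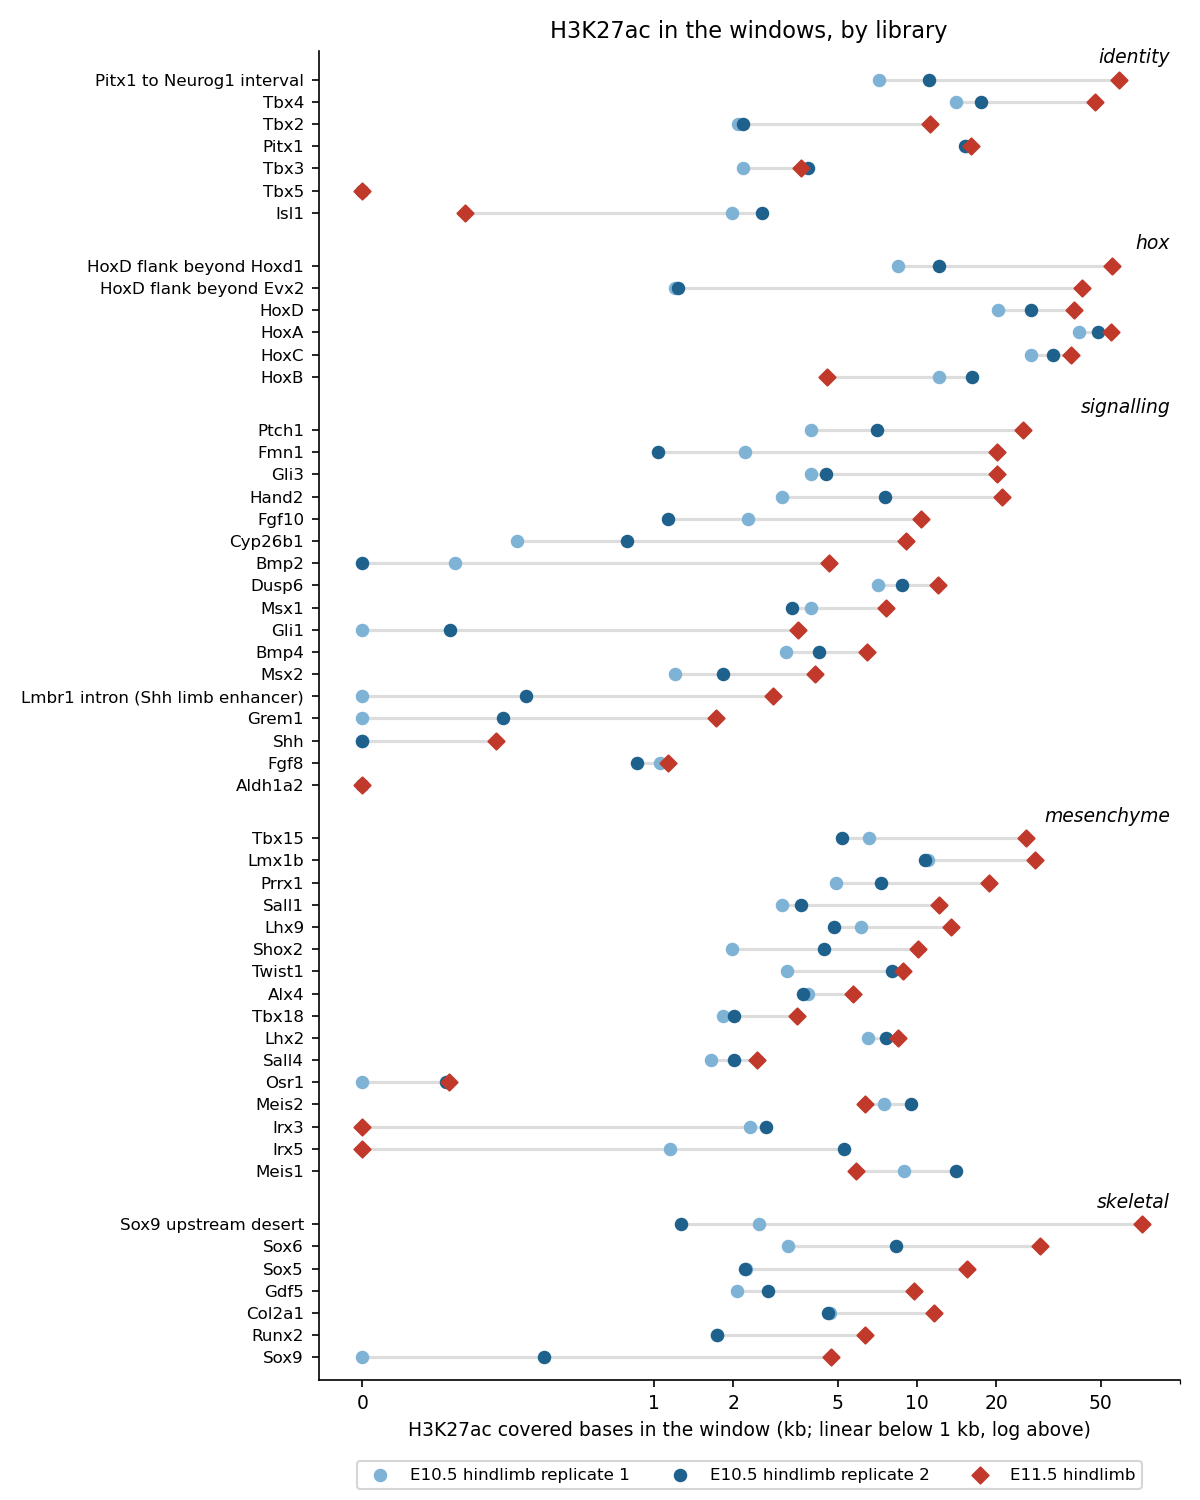
H3K27ac covered bases (x axis, kb, linear below 1 kb and logarithmic above) in each window of 5 lists (y axis) for E10.5 replicates 1 and 2 and E11.5 hindlimb. The E11.5 points stand left of both E10.5 points at Isl1, HoxB, Meis1, Meis2, Irx3 and Irx5, and right of both in most other windows.

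Of 7 windows of limb identity genes, 4 were more covered at E11.5 than in both E10.5 libraries and 1, Isl1, less. As shares of the totals 2 were above and 4 below. Over all bins, 83.1% were above both and 3.12% below, and by share 53.6% and 23.2%. Pitx1, the homeobox gene that gives the hindlimb its character, was covered over 15.4 and 15.2 kb at E10.5 and 16.0 kb at E11.5 in its own window (chr13:55900001-55950000), where all 3 forelimb lists were at 0. The 3 libraries lie close together there. The 395 kb on the Neurog1 side of it held 7.16 and 11.1 kb at E10.5 and 58.7 kb at E11.5. There 14 of 20 peaks were new, against 63.9% over the genome and 54.8% in the 7 windows together. Forelimb in this interval went from 11.1 and 4.58 to 35.2 kb. Its longest peak, chr13:56252323-56274996 (22.7 kb), was covered over 3.64 and 2.96 kb at E10.5. Tbx4, the T-box factor of the hindlimb (chr11:85660001-85780000), was covered over 14.1 and 17.5 kb at E10.5 and 47.6 kb at E11.5. Its neighbour Tbx2 went from 2.08 and 2.17 to 11.2 kb. As shares of the totals Tbx4 and Pitx1 were below both E10.5 libraries, while Tbx2 and the Neurog1 side stayed above. Tbx3, a related T-box gene, was covered over 2.17, 3.84 and 3.62 kb. Tbx5, the forelimb gene, was at 0 in all 3 hindlimb lists and under 34.3 and 34.1 kb of H3K27me3. Isl1, which acts upstream of hindlimb outgrowth, was covered over 1.98 and 2.58 kb at E10.5 and 0.350 kb at E11.5. Its absent region, chr13:117083688-117084620, is 933 bp long and ranked at 77.3. What remained was 350 bp at chr13:117100159-117100508, also covered in both E10.5 libraries, and the 3 forelimb lists were at 0.

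The Hox clusters differed from each other and within themselves. Hox genes lie in 4 clusters in the order in which they are used along the body. The 5′ genes are numbered up to 13, and those of HoxA and HoxD pattern the distal limb. Over whole windows HoxA was covered over 41.2 and 49.0 kb at E10.5 and 54.9 kb at E11.5, HoxC over 27.2 and 33.0 and then 38.5 kb, and HoxD over 20.4 and 27.1 and then 39.6 kb. HoxB went the other way, with 12.2 and 16.2 kb at E10.5 and 4.56 kb at E11.5. As shares of the totals all 4 were below both E10.5 libraries. The Hox windows held 34 regions of both libraries, 10 of them absent (29.4%, against 15.9% over all windows and 7.29% over the genome): 4 in HoxB, 3 in HoxD, 2 in HoxA and 1 in HoxC.

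**Figure D4:**
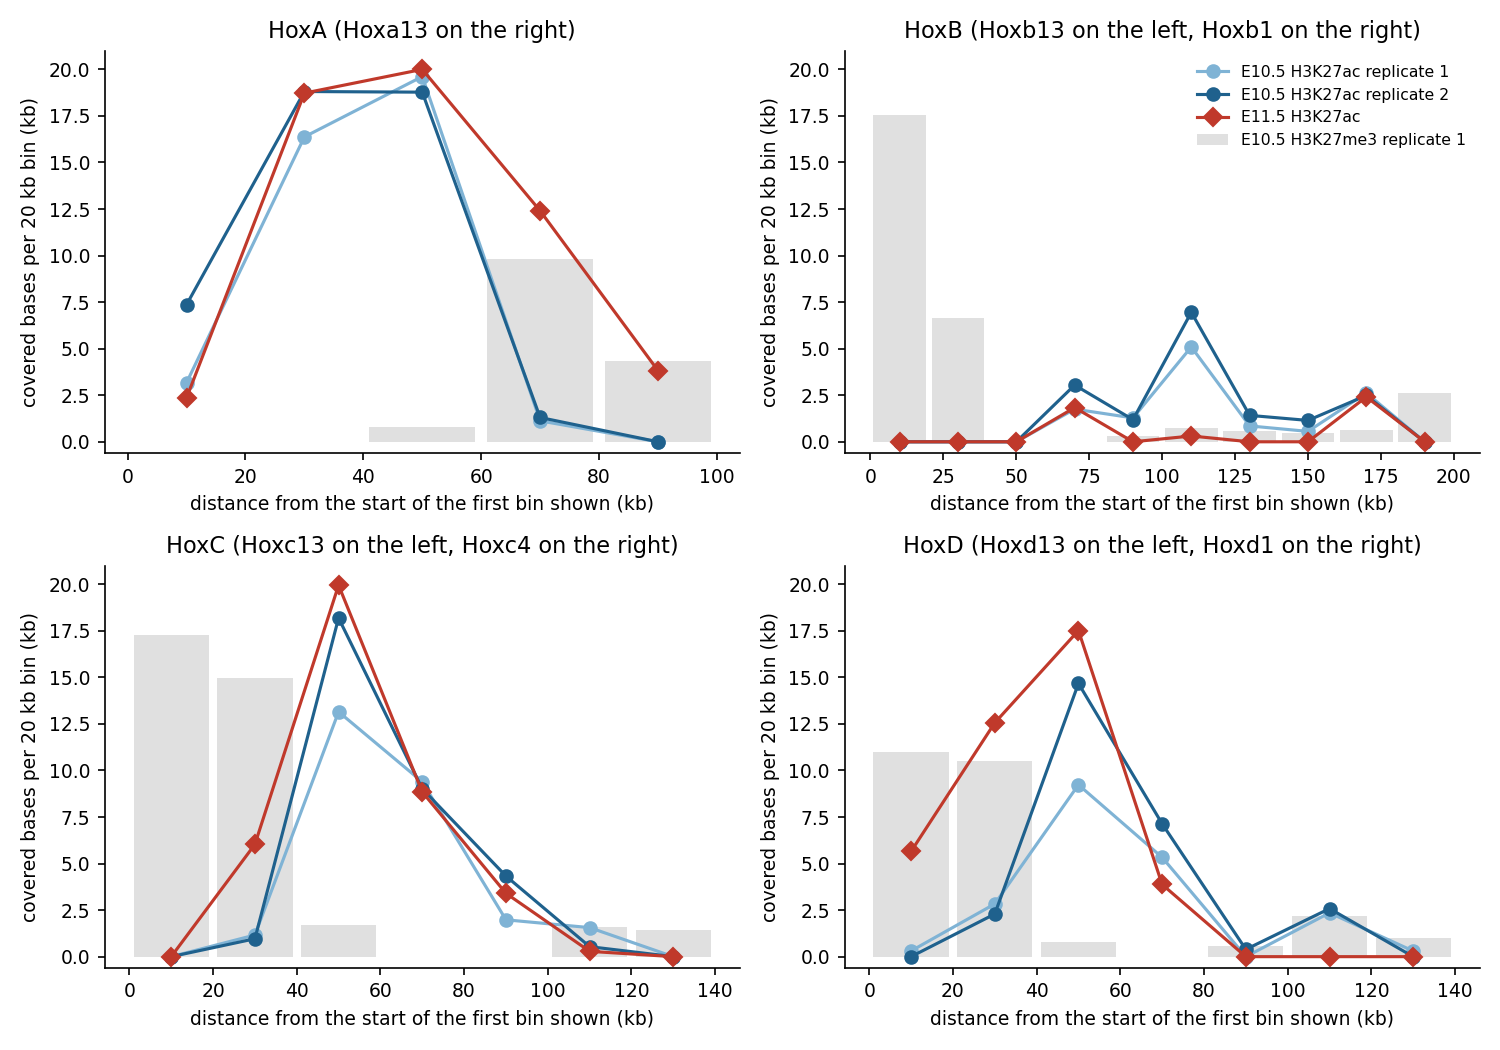
H3K27ac covered bases per 20 kb bin (y axis, kb) against distance from the first bin shown of each Hox window (x axis, kb) for E10.5 replicates 1 and 2 and E11.5 hindlimb, with E10.5 H3K27me3 of replicate 1 as grey bars. Near Hoxa13, Hoxc13 and Hoxd13 the E11.5 line stands above both E10.5 lines in bins with high grey bars, except the first HoxC bin at 0 in all, and in the middle of HoxB it is near 0.

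Split into bins, the additional coverage of HoxA, HoxC and HoxD lay toward the group 13 end, and bins with less coverage at E11.5 than in both E10.5 libraries lay farther from it. By the gene order of the RefSeq table, Hoxd13 is at the low-coordinate end of HoxD. The first bin there held 0.307 and 0 kb at E10.5 and 5.65 kb at E11.5, and the second (chr2:74500001-74520000) 2.83 and 2.29 kb and then 12.6 kb. As shares of the totals the first bin was above both, with 29.2, 0 and 120 bp per Mb, and the second between them, with 269.7, 174 and 266. These 2 bins held 11.0 and 10.4 kb, and 10.5 and 10.1 kb, of H3K27me3 at E10.5. Toward Hoxd1, the bin chr2:74580001-74600000 went from 2.35 and 2.58 kb to 0, with its 3 absent regions between chr2:74584437 and chr2:74591774, and forelimb went from 2.39 and 1.73 kb to 0. In HoxA, the bin chr6:52200001-52220000 at the Hoxa13 end went from 1.12 and 1.30 kb to 12.4 kb, over 9.80 and 9.10 kb of E10.5 H3K27me3, and forelimb there stood at 11.48 kb at E11.5. It was above both by share as well, with 107, 99.4 and 263 bp per Mb. The middle of HoxA formed 1 peak at E11.5, chr6:52165503-52200395, of which 34.1 and 33.3 kb of 34.9 were already covered at E10.5. In HoxC the second bin from the Hoxc13 end went from 1.16 and 0.961 kb to 6.03 kb, above both by share too (111, 73.2 and 128 bp per Mb), and forelimb was at 0 there in all 3 lists. Farther from the group 13 end, the bin at chr6:52140001 in HoxA held 3.18 and 7.37 kb and then 2.36 kb, and the bin at chr15:102840001 in HoxC 1.56 and 0.537 kb and then 0.286 kb.

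In unscaled covered bases, HoxB held the 1 bin of the genome with at least 4 kb less at E11.5 than in both E10.5 libraries. That bin, chr11:96140001-96160000, was covered over 5.10 and 6.96 kb at E10.5 and 0.311 kb at E11.5. It contains an absent region of 3419 bp, chr11:96151988-96155406, whose best peaks ranked at 77.8. Another absent region, chr11:96193850-96194996, ranked at 82.2. The bin at chr11:96200001 near the Hoxb1 end held 2.62, 2.49 and 2.41 kb. Without joining, no bin met the 4 kb difference, and against replicate 2 alone 4 did. Scaled to equal totals, 131 bins did. Of the E10.5 libraries, replicate 1 was at least 4 kb below the other 2 lists in 14 bins and replicate 2 in 0. Forelimb HoxB went from 10.1 and 7.23 kb to 0.955 kb.

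The gene-poor flanks of HoxD, which contain the known enhancer landscapes of the cluster, were among the windows with the most additional covered bases in sum, and are also among the longest windows. The 735 kb beyond Evx2 (chr2:73750001-74485000) went from 1.20 and 1.23 kb to 42.6 kb, with 27 of 29 E11.5 peaks new. Forelimb went from 1.43 and 0 kb to 39.9 kb. The 985 kb beyond Hoxd1 went from 8.45 and 12.2 kb to 55.1 kb, with 21 of 32 peaks new. Over the genome 63.9% of E11.5 peaks were new, so the count on the Hoxd1 side was near the usual share. Both flanks were above both E10.5 libraries as shares of the totals too, at 902 and 1168 bp per covered Mb at E11.5. The longest new peak on the Evx2 side, chr2:73910842-73916335, is 5494 bp long and has 0 bp covered at E10.5.

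Among 17 windows of signalling genes, 16 were above both E10.5 libraries and none below, and as shares of the totals 9 were above and 5 below. No region of both libraries was absent there (0 of 16, against 7.29% over the genome), and 44 of 68 peaks (64.7%) were new, against 63.9%. A bin was above both in 83.1% of cases, and in 53.6% by share, and these counts are near those shares. Bins and windows differ in length and in how they were chosen, so the bin shares are a rough guide. Targets and mediators of Shh stood above both on either scale. Gli1, a transcriptional target of the pathway, went from 0 and 0.301 kb to 3.52 kb. Ptch1, the Shh receptor and also a target, went from 3.93 and 7.01 kb to 25.2 kb with 7 of 11 peaks new, and its shares of the totals were 374, 534 and 534 bp per Mb, so E11.5 stood level with replicate 2. Gli3, the repressor of the pathway, went from 3.95 and 4.51 kb to 20.2 kb with 13 of 15 peaks new. The Lmbr1 intron that holds the limb enhancer of Shh went from 0 and 0.561 kb to 2.83 kb, at chr5:29640930-29643762, while forelimb stood at 0.287, 0 and 0.301 kb. Shh itself was at 0 in both E10.5 libraries and 0.457 kb at E11.5, under 11.3 kb of H3K27me3 in each library.

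Posterior, feedback and growth genes were also above both E10.5 libraries by length. Hand2, which sets up the posterior margin, went from 3.07 and 7.53 kb to 21.1 kb, with 1 peak of 12.0 kb at chr8:59795888-59807865. Its share of the totals lay between those of the E10.5 libraries. Fmn1, whose introns hold enhancers of the Bmp antagonist gene Grem1, went from 2.21 and 1.03 kb to 20.2 kb, and Grem1 from 0 and 0.481 kb to 1.72 kb. Fgf10, the mesenchymal Fgf, went from 2.26 and 1.12 kb to 10.3 kb. Bmp2 went from 0.317 and 0 kb to 4.62 kb. Bmp4 went from 3.17 and 4.23 kb to 6.47 kb, which was below both by share. Msx1 and Msx2, Bmp targets, and Dusp6, an Fgf target, were above both by length and below both by share. Cyp26b1, the enzyme that clears retinoic acid from the distal bud, went from 0.531 and 0.905 kb to 9.11 kb. Aldh1a2, the retinoic acid synthase, was at 0 in all 3. Fgf8 was covered over 1.05, 0.940 and 1.13 kb.

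Of the 6 windows below both E10.5 libraries, 4 were of mesenchymal genes, and these belong to the Meis and Irx families of the proximal bud. Irx3 was covered over 2.31 and 2.65 kb at E10.5 and 0 at E11.5. Its absent region, chr8:94323492-94325428 (1937 bp, rank 80.4), lay 354 kb from the nearest E11.5 peak. Irx5, its neighbour on the chromosome, was covered over 1.15 and 5.27 kb and then 0, so the E10.5 libraries themselves lie far apart there. Its region, chr8:94879291-94884655, is the absent region of over 4000 bp, and lay 437 kb from an E11.5 peak. Forelimb went to 0 as well, from 1.82 and 1.85 kb at Irx3 and from 2.99 and 0.579 kb at Irx5. E10.5 H3K27me3 covered 6.22 and 6.53 kb of the Irx3 window and 6.47 and 5.27 kb of the Irx5 window.

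Meis1 and Meis2, homeobox genes of the proximal limb and cofactors of Hox proteins, were less covered than in both E10.5 libraries but not at 0. Meis1 went from 8.88 and 14.1 kb to 5.87 kb, with 3 of 4 regions absent, and forelimb from 9.98 and 6.75 kb to 1.20 kb. The 3 absent regions were chr11:18770416-18772147, chr11:18776193-18777519 and chr11:18926489-18927672, with ranks of 36.1, 64.2 and 62.8. The kept peak chr11:18918225-18921342 was covered over 3.12 kb at E11.5 and over 2.79 and 3.12 kb at E10.5. Meis2 went from 7.48 and 9.46 kb to 6.35 kb, and forelimb from 6.19 and 4.08 kb to 0. Without joining, Meis2 was no longer below both. H3K27me3 was at 0 in the Meis1 window in both libraries, unlike at Irx3 and Irx5.

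The other 12 mesenchymal windows were above both E10.5 libraries, as were 83.1% of bins. By share 0 of the 12 were above and 9, Prrx1 and Lmx1b among them, below both. Over all bins, 53.6% were above and 23.2% below by share. Prrx1, a general factor of limb mesenchyme, went from 4.90 and 7.28 kb to 18.8 kb. Lmx1b, which makes the dorsal side, went from 11.0 and 10.7 kb to 28.1 kb. Tbx15 went from 6.54 and 5.17 kb to 25.9 kb with 7 of 10 peaks new. In all 16 mesenchymal windows 26 of 51 peaks (51.0%) were new, against 63.9% over the genome. Twist1 was close to the higher replicate, with 3.20, 8.01 and 8.86 kb, and so was Lhx2, with 6.53, 7.64 and 8.45 kb. The larger E11.5 totals apply to these windows as to the genome at large.

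Among windows of skeletal genes, the long ones held most of the new peaks. All 7 were above both E10.5 libraries and 4 of them also by share, where 83.1% and 53.6% of bins were, and 0 of 6 regions were absent, against 7.29% over the genome. In all, 86 of 106 peaks (81.1%) were new, against 63.9% over the genome, but 80 of the 86 lay in the desert before Sox9, Sox5 and Sox6, and 6 of 14 peaks were new in the other 4 windows. Their summed coverage was 16.4 and 21.4 kb at E10.5 and 149 kb at E11.5, of which 71.7 kb lay in the desert. The gene desert before Sox9, the factor that starts cartilage, spans 1655 kb in this window (chr11:110970001-112625000). It went from 2.50 and 1.26 kb to 71.7 kb, with 48 of 53 peaks new, and forelimb from 2.39 and 0.582 kb to 29.1 kb. Its share was 238 and 96.0 bp per Mb at E10.5 and 1519 at E11.5. Sox9 itself went from 0 and 0.622 kb to 4.69 kb, a single peak at chr11:112642145-112646836. Sox5 and Sox6, its partners in cartilage, went from 2.23 and 2.20 kb to 15.5 kb and from 3.23 and 8.32 kb to 29.5 kb, with 16 of 17 and 16 of 22 peaks new. Sox6 lay between the E10.5 libraries by share. Gdf5, a joint marker, went from 2.06 and 2.70 kb to 9.76 kb, with shares of 196, 206 and 207 bp per Mb. Col2a1, the cartilage collagen, went from 4.67 and 4.58 kb to 11.6 kb, which was below both by share, and Runx2, the bone factor, from 1.74 and 1.74 kb to 6.34 kb.

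Most markers of other cell types had little or no H3K27ac at either stage. The 4 muscle windows (Pax3, Myf5, Myod1 and Lbx1) summed to 0 and 0.292 kb at E10.5 and 0 at E11.5, with the last 3 at 0 in every hindlimb H3K27ac list. The 3 neural and organ windows (Pax6, Nkx2-1 and Olig2) were at 0 in all 3. Blood and endothelial windows (Tal1, Kdr, Gata1 and the beta-globin cluster) summed to 0.596, 0 and 1.24 kb. In the ectoderm, En1 and Dlx5 with Dlx6 were at 0, and Sp8 was covered over 0.575, 0 and 0.511 kb. Fgf8, the marker of the ectodermal ridge, was covered in all 3 libraries, over 1.05, 0.940 and 1.13 kb, and its 1 region of both E10.5 libraries was kept. Mesenchymal markers Prrx1, Twist1, Lhx2 and Lhx9 were covered in all 3 libraries, as the labelled tissue would have. The share of ectoderm, muscle precursors or blood in a bud was not measured.

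The strongest absent regions lay outside the windows, as did most of the 582, of which 17 lay in windows. By mean score rank, the 10 strongest ranked between 87.3 and 95.7 and were 1.06 to 2.01 kb long. The first, chr11:118917529-118918770, scored 329 and 413 (minus 10 times the base-10 logarithm of the p-value), was under H3K27me3 over 1.24 and 1.20 kb, and was held by both E10.5 forelimb libraries but not at E11.5. The second, chr9:47338782-47339957, lay 251 bp from an E11.5 peak, so its absence rests on where that peak ends. The third, chr11:64248818-64250314, scored 336 and 302, lay 32009 bp from an E11.5 hindlimb peak and was covered over 1.26 kb in E11.5 forelimb. The same limit as for the second holds for the fourth, chr5:23893124-23894517, which lay 654 bp from an E11.5 peak. The seventh and eighth lay 1771 and 2192 bp from one. Of the 10, 5 touched H3K27me3 of at least 1 library, 9 were in both E10.5 forelimb libraries and 5 were in the E11.5 forelimb list. Over all absent regions these shares were 40.7%, 28.0% and 8.08%. The 10 were thus shared with forelimb more often than absent regions in general. They were picked for high rank, where absent regions had a median of 50.3, and the part of rank in this difference was not tested.

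The longest new peaks were shared with the forelimb, as long E11.5 peaks were in general. The 10 longest new peaks spanned 10.0 to 22.4 kb, none touched H3K27me3 and all 10 were in the E11.5 forelimb list. The 10 longest kept peaks were all in that list too. Of all E11.5 hindlimb peaks of 8 kb or more, 0.809% were missing from it. The longest new peak, chr16:55132860-55155290, had 0 kb in both E10.5 hindlimb libraries, 0.316 and 0 kb in E10.5 forelimb and 19.1 kb in E11.5 forelimb. Next was chr16:21271221-21288393, with 17.2 kb in hindlimb and 12.9 kb in forelimb at E11.5. The longest E11.5 peak of all was kept: chr1:163904658-163958326 spanned 53.7 kb and was covered over 5.45 and 10.9 kb at E10.5. Another kept peak, chr7:149717454-149766817, spanned 49.4 kb and was covered over 22.2 and 21.8 kb. Of the 10 longest kept peaks 1 lay in a window, the HoxA peak.

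Among the bins with the largest differences, only those with less coverage at E11.5 included bins lying in windows. The share of all bins that lie in windows is not given here, and the windows were chosen with earlier results known. The 2 sides are therefore listed without reading a contrast between them. The 10 with the most additional coverage lay in no window, and in the first of them, chr17:5220001-5240000, all 20 kb were covered at E11.5 against 0.527 and 0.697 kb at E10.5. Forelimb stood at 13.3 kb there at E11.5. Of the 10 with the largest difference toward less coverage, 5 lay in windows (HoxB, HoxD, Irx3, Meis2 and Meis1). Outside them, chr4:131460001-131480000 went from 2.85 and 3.51 kb to 0.379 kb with 1.91 and 1.75 kb of H3K27me3, and chr1:75440001-75460000 from 3.12 and 2.13 kb to 0 with 3.67 and 3.50 kb. Of these 10 bins, 8 were also lower at E11.5 than in both E10.5 libraries in forelimb. By chromosome, the share absent ran from 1.79% (1 of 56 regions) on X to 12.2% (42 of 345) on chromosome 13.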

How the data were processed

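H3K27ac peak lists of hindlimb buds (2 libraries at E10.5, 1 at E11.5) were compared, with forelimb H3K27ac and hindlimb H3K27me3 lists beside them. Bowtie 0.12.3 alignment to mm9 and MACS 1.37 peak calling are named in the submitters' processing notes, with 1 list per library. Per the file headers, the E10.5 threshold was p = 1e-05, and the score the authors deposited for each E10.5 peak is minus 10 times the base-10 logarithm of its p-value; it served to rank or filter within a list. At E11.5 there is no score, and the threshold and the joining of peaks are not given in the sources used here. Depth is unknown.

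E10.5 H3K27ac peaks at most 1000 bp apart were joined, the E10.5 lists merged, and overlap counted from 1 bp (Python 3.11.15, numpy 2.4.6, scipy 1.17.1). Covered bases were summed in 20 kb bins and in 69 windows. No mm9 gene models were used: windows were placed from general knowledge of mm9, and a GRCm38.p6 RefSeq table gave the same chromosome for 69 of 69 and the same order on 19 of 19 chromosomes, which does not check their bounds. Exon and intron positions are therefore not given, and 1 item is not reported here. The members, windows and lists were chosen with earlier results of these data known. Named were the windows, the 10 absent regions best by mean score rank, the 10 longest new and 10 longest kept peaks, and the 10 bins with the largest difference in each direction. The overlap code recovered planted classes on simulated data. Settings tried were other joining gaps, overlap, score and length limits, intersections, scaled totals and leaving out each E10.5 library.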

Additional observations from a re-analysis of the deposited data

Results flagged for a closer look

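In 3 windows the E11.5 library stood on opposite sides of both E10.5 libraries in the 2 limbs. The difference between limbs was not tested, since each limb has 1 library at E11.5. At HoxC, E11.5 minus the E10.5 mean was 8.38 kb in hindlimb (27.2 and 33.0 kb, then 38.5 kb) and -4.77 kb in forelimb (10.3 and 3.62 kb, then 2.21 kb). At Osr1 it was 0.152 kb in hindlimb and -1.36 kb in forelimb, and at Fgf8 0.136 kb and -0.394 kb. The hindlimb differences at Osr1 and Fgf8 are smaller than the spread between the E10.5 replicates at Osr1 (0 and 0.285 kb) and about that at Fgf8 (1.05 and 0.940 kb). HoxC was below both E10.5 hindlimb libraries as a share of the totals, and so was Fgf8.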

How the results depend on the processing

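Each value was recomputed under the settings chosen for it. The share of E10.5 regions kept was 96.8% with a score of at least 100, 80.8% with E11.5 peaks of at least 1000 bp, and 75.4% to 80.9% leaving out 1 E10.5 library. Absent regions numbered 133 with a score of at least 100, 194 with the top 50% by score, 1534 with E11.5 peaks of at least 1000 bp, and 2532 to 3169 leaving out 1 library, where regions of 1 library alone enter. New peaks numbered 6172 with E11.5 peaks of at least 1000 bp. The share of new peaks in E11.5 forelimb was 38.7% with a gap of 3000 bp on all lists, 45.4% with 50% overlap, 43.7% with a score of at least 100, 41.9% with the top 50%, 74.5% with peaks of at least 1000 bp, and 39.1% to 41.2% leaving out 1 library. The share of absent regions touching both H3K27me3 libraries was 24.8% without joining, 23.5% with 50% overlap, 30.9% with the top 50%, 13.0% with peaks of at least 1000 bp, 23.1% with intersections, and 12.3% to 15.5% leaving out 1 library, and stayed above that of kept regions in each. Bins with at least 4 kb more numbered 186 scaled to equal totals and 438 at 8 kb. Bins with at least 4 kb less numbered 131 scaled, 0 at 8 kb, 0 without joining, and 1 to 4 leaving out 1 library. Windows above both numbered 19 scaled and windows below both 28. Isl1, HoxB, Meis1, Irx3 and Irx5 were below both under scaling and without joining. Where no cause is given, it was not tested. Unknown depth limits every absence. No paired analysis was possible because E11.5 has 1 library.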
